A study of Mus musculus with 18 samples.

Results

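The genes described here encode the proteins of the cytosolic ribosome, and they were followed in the livers of wild-type and Gpr180KO mice fed a high-fat diet (HFD). They were chosen by symbol: Rpl, Rplp or Rps followed by a number, together with Rpsa and without the S6 kinase genes. Of 23352 symbols in the tables, 86 matched this rule, none had a failed estimate in any library, and 83 had a mean of at least 1 FPKM over the 18 libraries. The 3 left out were Rpl10l, Rpl3l and Rpl39l, copies of Rpl10, Rpl3 and Rpl39 with means of 0, 0.028 and 0.054 FPKM. The 83 genes were 49 of the large (60S) subunit, 33 of the small (40S) subunit, and Rps19bp1. Rps19bp1 encodes a protein that binds RPS19 and is not a subunit of the ribosome, so the symbol alone brought it in.

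Liver poly(A) RNA was sequenced from 18 male mice aged 20 weeks, 9 WT and 9 Gpr180KO, with 1 library per mouse. All mice received HFD, so there was no lean group here. The knockout is global: exon 6 of Gpr180 was deleted with CRISPR/Cas9 in C57BL/6J eggs, and the WT mice came from matings of heterozygous carriers. The sample titles come in 2 styles, called series 1 (4 mice per genotype) and series 2 (5 per genotype) below, and what the styles stand for is not stated. FPKM, the unit of every level below, is the reads of a gene divided by the length of its transcript and by the mapped reads of the library, and a log2 difference is the Gpr180KO mean minus the WT mean of log2(FPKM + 0.1).

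Ribosomal proteins are nearly all needed in equal numbers in each ribosome, and their genes are among the most highly transcribed in every cell. Their mRNAs are short, and nearly all begin with a C followed by a run of pyrimidines, the 5′ terminal oligopyrimidine (TOP) tract, through which mTORC1 and LARP1 set how many of these mRNAs are being translated. Control through the TOP tract acts mainly on translation and on mRNA stability, and FPKM measures the amount of mRNA only. The study examined mTORC1 signalling, and it reported lower phosphorylation of mTOR and of S6 ribosomal protein in Gpr180KO livers. The mRNA levels here do not measure phosphorylation. Rps6, which encodes the substrate of the S6 kinases, is in the set. Rplp0 (36b4), to which the study normalized its quantitative PCR of Gpr180 in several organs, is also a member.

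To show the TOP tract as annotated, the 30 bases around the RefSeq transcription start (10 before it and 20 from it on, GRCm38.p6) are given for the 8 members named below whose start is a C followed by at least 4 more pyrimidines, with the tract in capitals. The windows lie at chr4:86857348-86857377 on the minus strand for Rps6, chr7:141447641-141447670 on the plus strand for Rplp2, chr3:90213629-90213658 on the minus strand for Rps27, chr11:114668570-114668599 on the plus strand for Rpl38, chr2:39005112-39005141 on the minus strand for Rpl35, chr14:18270967-18270996 on the minus strand for Rpl15, chr9:120571507-120571536 on the plus strand for Rpl14 and chr7:118116128-118116157 on the minus strand for Rps15a.
Rps6: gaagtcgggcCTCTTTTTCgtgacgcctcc
Rplp2: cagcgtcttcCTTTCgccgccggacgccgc
Rps27: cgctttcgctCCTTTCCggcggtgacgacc
Rpl38: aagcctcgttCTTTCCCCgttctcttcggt
Rpl35: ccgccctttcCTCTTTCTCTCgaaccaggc
Rpl15: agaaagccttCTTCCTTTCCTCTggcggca
Rpl14: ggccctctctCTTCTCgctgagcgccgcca
Rps15a: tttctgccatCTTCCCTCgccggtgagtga

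RefSeq windows were at hand for 62 of the 83 members. A start with a C and at least 4 further pyrimidines was annotated for 13 of these 62, against 3.01% of the 27025 genes in the promoter table, and in others the tract stood a few bases away from the annotated base. Besides the TOP tract, the letters CTTCCG, part of the ETS family motif, were searched on both strands of the 300 bases around each start. They were in the windows of 43 of the 62 members and of 18.8% of all genes. None of these matches was used in the comparisons that follow.

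Measured as mRNA, the ribosomal protein genes were abundant in every liver. Their mean FPKM had a median of 250.1, against 7.58 for the 10835 symbols with a mean of at least 1, and 73 of the 83 had a mean over 100 FPKM. The 40S genes had a median of 280.4 FPKM and the 60S genes 219.6 FPKM. The highest means were those of Rplp1 (854 FPKM), a protein of the lateral stalk that recruits elongation factors, Rpl41 (729 FPKM), which encodes the smallest protein of the ribosome, Rpl10 (595 FPKM), a late-joining 60S protein beside the peptidyl transferase centre, Rps29 (569 FPKM) and Rpl38 (519 FPKM). The lowest were Rpl30 (5.96 FPKM), Rps19bp1 (12.3 FPKM), Rps4y2 (13.2 FPKM), Rps15a (13.6 FPKM) and Rpl7l1 (21.4 FPKM). Low values were not all low expression, as the loci of Rpl30 and of 3 other members show.

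At 4 loci the tables hold a second entry that covers at least 90% of the member and is covered by it to at least 90%. Rps27 (chr3:90212667-90213648, mm10) shares its locus with Gm9846, Rpl26 (chr11:68901566-68904534) with Gm15772, Rpl34 (chr3:130726831-130730308) with Rpl34-ps1, and Rpl30 (chr15:34440508-34443276) with Gm12191. Rps27 stood between 0.908 and 11.6 FPKM in the 8 libraries of series 1 and between 216 and 793 FPKM in the 10 of series 2. The sum of Rps27 and Gm9846 stayed between 451 and 793 FPKM in the 17 libraries other than KO51, so the series differed mainly in which entry held the reads. Rpl26 was under 1 FPKM in 13 libraries and between 66.6 and 499 FPKM in W131, W133, W134, W156 and KO53, while Rpl26 and Gm15772 summed to 344 to 499 FPKM in the same 17. Rpl34 ranged from 11.6 (W318) to 347 FPKM (KO321), against 271 to 382 FPKM for the sum with Rpl34-ps1. Rpl30 never exceeded 10.8 FPKM, and its sum with Gm12191 was 281 to 456 FPKM. At these 4 loci the member's own entry therefore did not hold all the reads of the locus. Over the 17 libraries the SD of log2(FPKM + 0.1) was 5.24 for Rpl26, 3.82 for Rps27, 1.30 for Rpl34 and 0.63 for Rpl30 as deposited, and 0.14, 0.24, 0.16 and 0.21 for the sums.

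**Figure D1:**
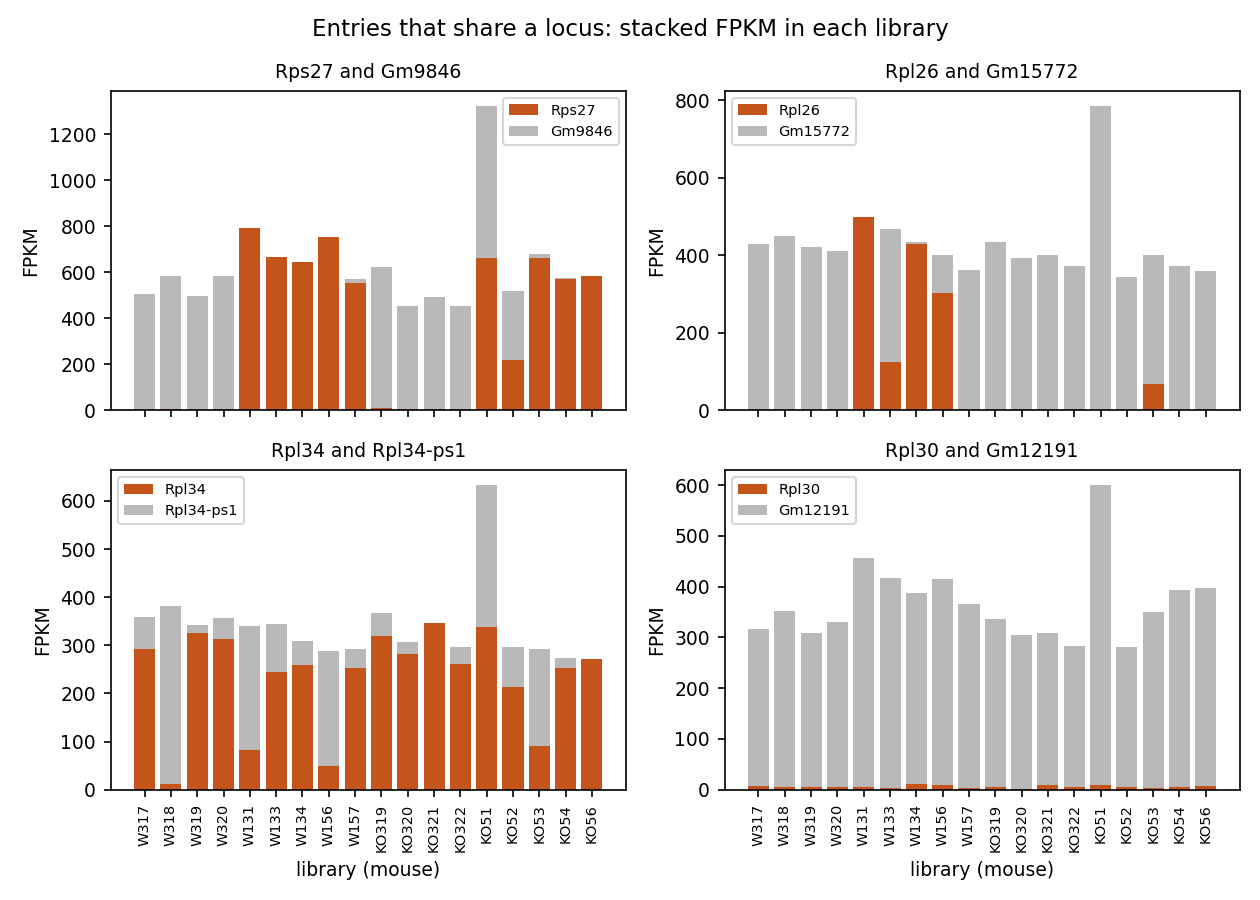
FPKM (vertical axes) of 4 ribosomal protein genes (orange) and of the second entry at the same locus (grey), stacked, in each of the 18 libraries. At the Rpl30 locus Gm12191 holds most of the FPKM in every library. At the other loci the share of the 2 entries changes between libraries, for Rps27 mainly between the series. The sums stay within 271 to 793 FPKM outside library KO51, where all 4 sums are highest.

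Other members of low FPKM have copies elsewhere in the genome. Rps4y2 is a copy of Rps4x and Rpl7l1 a paralog of Rpl7. For Rps15a, with 22.7 FPKM at most, and Rps4y2, with 25.8 FPKM at most, reads that fit several copies may have been divided or dropped in the counting, and their levels are uncertain. Introns of ribosomal protein genes also carry small RNAs. The tables have 34 entries for small nucleolar RNAs and other small RNAs inside 23 members, and 21 of the 34 were at 0 in every library, which a poly(A) selection leaves mostly unmeasured.

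One library stood apart in nearly the whole set. In KO51, a Gpr180KO mouse of series 2, the FPKM of the 83 members summed to 40868, whereas the other 17 libraries lay between 18508 and 24040. The members took 5.69% of all FPKM in KO51 and 3.20 to 4.09% in the other 17. Of the 83 members, 78 were higher in KO51 than in any other library, against 18.8% of all symbols tested, and 35 exceeded 2 times their median in the other 17. The median member was 1.92-fold above that median, with 0.91 for the 60S and 0.96 for the 40S genes on the log2 scale, while the median of all symbols tested was 0.23 below it on that scale. Rps29 was at 1211 FPKM in KO51 and 391 to 655 FPKM elsewhere. Rplp2 was at 607 FPKM in KO51 and 163 to 289 FPKM elsewhere. Rps6 was at 308 FPKM, against 153 to 214 FPKM. Rpl7l1, at 21.5 FPKM in KO51 and 17.9 to 25.4 FPKM in the others, was the exception below its median.

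**Figure D2:**
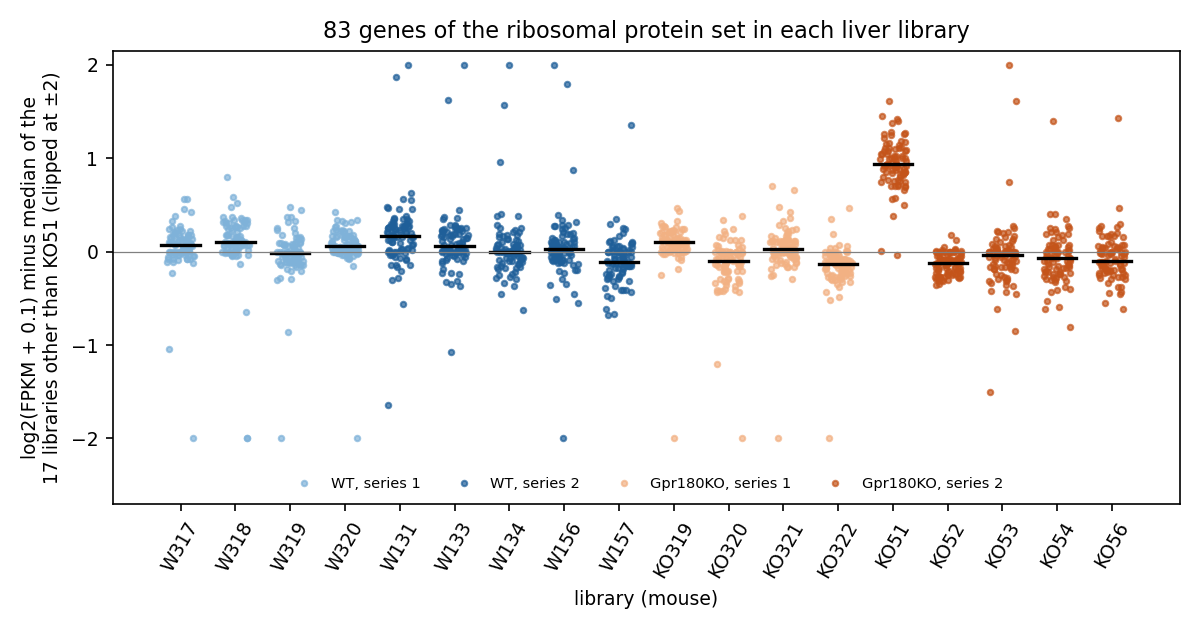
Each point is 1 of the 83 genes in 1 library, as log2(FPKM + 0.1) minus the gene's median over the 17 libraries other than KO51 (vertical axis, clipped at ±2), and black bars are medians per library. The median of KO51 is 0.94 and those of the other libraries lie between -0.13 and 0.17, and points at the limits are members that share a locus with another entry.

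The rise in KO51 went with transcript length. Members have short transcripts: 52 of the 82 with a length in the GENCODE annotation are under 1000 nt, against 7.77% of all symbols with a length. Among protein-coding genes outside the set, KO51 stood 0.90 above the median of the other libraries for transcripts of up to 500 nt (50 genes), 0.82 for 500 to 700 nt (137 genes), 0.68 for 700 to 1000 nt (376 genes), 0.47 for 1000 to 1500 nt (989 genes) and 0.07 for 1500 to 2500 nt (2434 genes), all on the log2 scale. For transcripts of 2500 to 4000 nt and over 4000 nt it stood below, by -0.36 and -0.95. Members in the first 5 classes had medians of 1.22 (11 genes), 0.96 (14 genes), 0.91 (27 genes), 0.93 (18 genes) and 0.76 (8 genes). They were above the other genes of their class in each of these 5, by 0.15 to 0.69 on the log2 scale, and between 4.77% and 34.3% of the other genes exceeded the members' median. Each library was also centred by length class, with classes other than those above, which was done after seeing the data. The median deviation of the members in KO51 was then 0.40, and that of the other libraries lay between -0.11 and 0.16. Differences in length within a class were not removed, so the 0.40 may still hold part of the relation with length. Length class therefore went with part of the height of KO51, and the annotated lengths of a few members, such as the 5179 nt of Rps15a, are those of long isoforms.

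**Figure D3:**
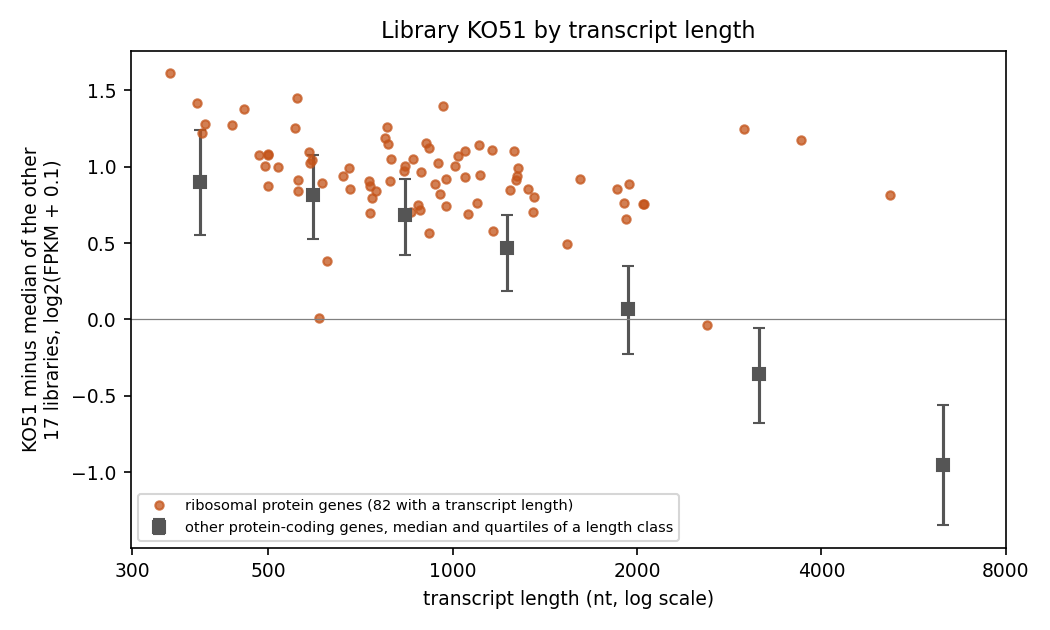
Height of library KO51 above the median of the other 17 libraries (vertical axis, log2 scale) against transcript length (horizontal axis, log scale), for 82 members (orange) and for classes of the other protein-coding genes (grey squares, medians with quartiles). The other genes fall from 0.90 in the shortest class to -0.95 in the longest, and most members lie above the class of their length.

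A smaller form of the same relation ran through the other libraries. For each library, the median deviation of 561 short protein-coding genes outside the set (under 1000 nt) minus that of 2958 long ones (over 4000 nt) lay between -0.13 and 0.10, against 1.68 in KO51. Over the 17 libraries without KO51, the members' median level correlated with this measure (Pearson's r = 0.78, permutation p = 0.00026, Spearman's rho = 0.81, permutation p = 8e-05). Without W157 and KO52, the 2 libraries farthest from its median, r was 0.71 (permutation p = 0.0033, n = 15). Within the series r was 0.91 in series 1 (exact permutation p = 0.0020, n = 8) and 0.82 in series 2 without KO51 (exact permutation p = 0.015, n = 9). The other correlations across libraries, given further below, carry no p-value, and the p-values here were not adjusted. RNA integrity and fragment size were not analysed here, and their part in the result was not tested.

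No ribosomal protein gene passed the test for a difference between WT and Gpr180KO livers in the comparison of all 18 libraries. With limma and Benjamini-Hochberg adjustment over 10835 symbols, 0 of 83 were lower and 0 higher at an adjusted p under 0.05, and 0 had an unadjusted p under 0.05. Over all symbols 4.28% were lower and 0.452% higher in Gpr180KO. The median log2 difference of the members was 0.01, with 36 below 0 and 47 above, while that of all symbols tested was -0.13, with 76.9% below 0. The members thus stood 0.14 above the median of all symbols. Without KO51 this gap was -0.006. Median-of-ratios scaling moved the median of all symbols to 0.02 and that of the members to 0.16. It divides all values of a library by a common factor, so the gap between the medians could hardly change. With it 0 members were called, beside 1.36% of all symbols lower and 1.35% higher. Differences below are on the deposited scale unless said otherwise, with the shift of -0.13 in all symbols included. The lowest adjusted p of a member was 0.25, that of Rpl26, and the 95% intervals had a median half-width of 0.28 on the log2 scale. For 76 of the 83 members the interval lay within a 1.5-fold difference in either direction.

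Rps6 encodes the 40S protein that S6 kinases phosphorylate downstream of mTORC1. Its WT values ran from 169 through a median of 183.4 to 205 FPKM, and the Gpr180KO values other than KO51 from 153 through 182 to 214 FPKM. The groups overlapped over nearly their whole range, with KO51 at 308 FPKM above both. The log2 difference was 0.04 (SE 0.10, 95% interval -0.17 to 0.26, limma adjusted p = 0.81), and without KO51 it was -0.04 (interval -0.18 to 0.10, adjusted p = 0.76).

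Rplp0, Rplp1 and Rplp2 make up the lateral stalk of the 60S subunit. Rplp0 was at 218, 239 and 257 FPKM (lowest, median, highest) in WT livers and at 188, 204 and 235 FPKM in the Gpr180KO livers other than KO51, where it was at 387 FPKM. Most Gpr180KO values were thus below most WT values, with overlap, and KO51 was above all. Its log2 difference was -0.09 (SE 0.11, 95% interval -0.32 to 0.13, limma adjusted p = 0.62) with KO51 and -0.19 (SE 0.05, interval -0.31 to -0.08, adjusted p = 0.042) without it. Rplp1 was at 747, 843 and 935 FPKM in WT, at 620, 748 and 944 FPKM in Gpr180KO without KO51, and at 1741 FPKM in KO51. Rplp2 was at 163, 224 and 267 FPKM in WT and at 169, 232 and 289 FPKM in Gpr180KO without KO51. Neither Rplp1 nor Rplp2 separated the genotypes, with log2 differences of -0.01 (interval -0.31 to 0.29) and 0.18 (interval -0.19 to 0.54).

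RPL5 and RPL11 form the 5S ribonucleoprotein particle, which binds MDM2 when ribosome assembly stalls. Rpl5 was at 109, 126 and 147 FPKM in WT and at 104, 119 and 138 FPKM in Gpr180KO without KO51 (203 FPKM in KO51). Rpl11 was at 365, 403 and 515 FPKM in WT and at 306, 358 and 402 FPKM in Gpr180KO without KO51 (722 FPKM in KO51). For both genes the ranges overlapped and KO51 was the highest of the 18 libraries. The log2 differences were 0.01 for Rpl5 (interval -0.20 to 0.22) and -0.10 for Rpl11 (interval -0.37 to 0.17).

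Beyond the entries that share a locus, the members with the largest fitted differences were Rps4y2 (log2 difference 0.42, interval -0.06 to 0.90), Rpl38 (0.19, interval -0.26 to 0.64) and Rplp2 above 0, and Rpl17 (-0.14, interval -0.43 to 0.15), Rpl39 (-0.14, interval -0.51 to 0.24), Rpl10a (-0.13, interval -0.41 to 0.14) and Rpl35 (-0.13, interval -0.47 to 0.20) below. Rpl26 (-4.06, interval -8.34 to 0.23), Rpl34 (0.82, interval -0.28 to 1.92) and Rps27 (0.18, interval -3.28 to 3.65) had the widest intervals in the set, and with the sum of both entries their differences were -0.05, -0.01 and -0.04 (limma adjusted p of 0.85, 0.97 and 0.90). For Rpl30 the difference was -0.13 as deposited and -0.07 for the sum (adjusted p = 0.76). No member had non-overlapping values in the 9 WT and 9 Gpr180KO livers, with or without KO51, beside 0.231% and 0.314% of all symbols.

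Without KO51 the ribosomal protein genes were slightly lower in Gpr180KO, by about as much as the average gene. Their median log2 difference was -0.10 and that of all symbols -0.10, and 77 of the 83 members were below 0, against 74.8% of all symbols. Limma called 6 members lower (7.23% of the set) and 0 higher, 18 members were lower at an unadjusted p under 0.05 and 0 higher, and over all symbols 6.36% were called lower and 0.821% higher. The 6, named after their values were seen, were Rpl41 (log2 difference -0.26, adjusted p = 0.048), Rps15 (-0.26, adjusted p = 0.041), Rpl31 (-0.24, adjusted p = 0.048), Rpl19 (-0.22, adjusted p = 0.039), Rplp0 and Rpl15 (-0.18, adjusted p = 0.046). Rpl19 was at 383, 425 and 479 FPKM in WT and at 329, 371 and 411 FPKM in these 8 Gpr180KO livers, which overlap. Rpl15 was at 80.8, 92.0 and 98.8 FPKM in WT and at 72.3, 79.4 and 84.3 FPKM in Gpr180KO, with a narrower overlap. With median-of-ratios scaling of the 17 libraries the members' median was 0.02, that of all symbols 0.03, and limma called 0 members, with 0 lower and 1 higher at an unadjusted p under 0.05, beside 2.42% of all symbols called lower and 2.48% higher. Centring by length class gave a median of 0.01 and 0 calls without KO51, beside 3.03% of all symbols lower and 1.96% higher. With the series as a block 15 members were lower without KO51, beside 16.2% of all symbols. With weights per library and KO51 included, 8 were lower, beside 10.7%. Summed over the members, FPKM was 21705 ± 1229 (SD, n = 9) in WT and 19903 ± 1187 (SD, n = 8) in Gpr180KO without KO51, and 22233 ± 7076 (SD, n = 9) with it.

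**Figure D4:**
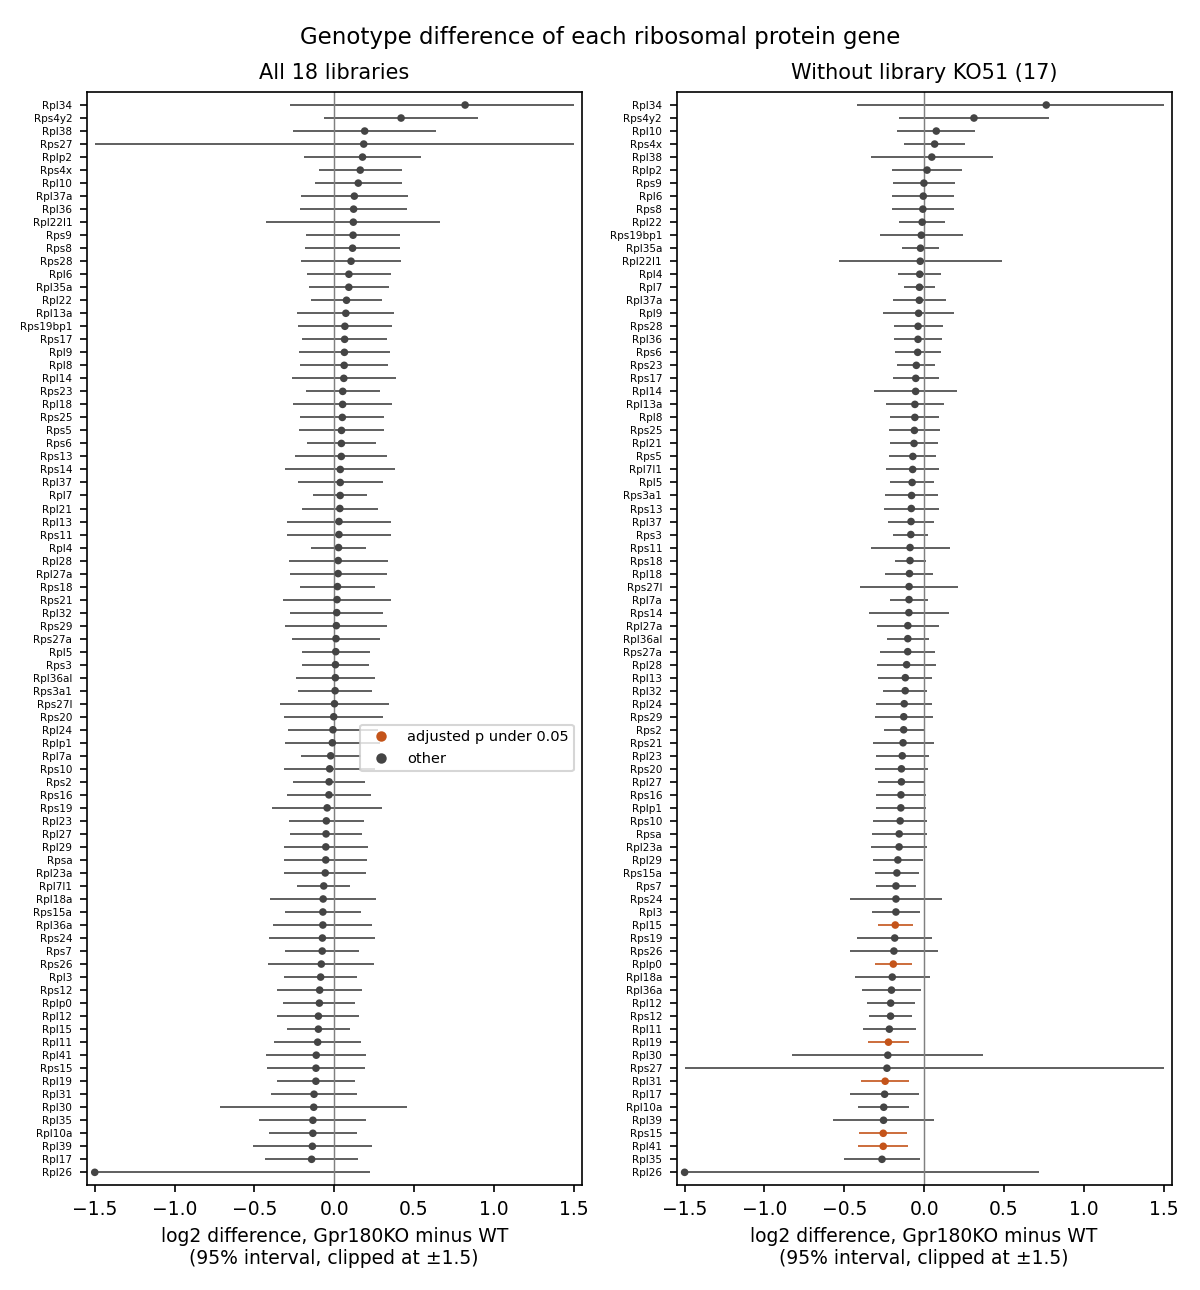
Log2 difference Gpr180KO minus WT of each of the 83 genes with its 95% interval from limma (horizontal axes, clipped at ±1.5), sorted, for all 18 libraries (left) and without KO51 (right). Without KO51 77 of 83 points lie below 0 and 6 pass an adjusted p of 0.05 (orange), and on the left none does.

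The difference did not depend detectably on the series. Limma's interaction of genotype and series called 0 of the 83 members (2 lower and 2 higher at an unadjusted p under 0.05, lowest adjusted p of 0.59) and 0% of all symbols. Without KO51 it again called 0 members and 0% of all symbols, with a lowest adjusted p of 0.19. The median half-width of the interaction's 95% intervals was 0.55 on the log2 scale with KO51 and 0.28 without it, so smaller differences between the series could not be seen. Within series 1 the members' median difference was -0.11 (0 called, 14 lower and 1 higher at an unadjusted p under 0.05), beside 4.5% of all symbols called lower and 0.831% higher. Within series 2 it was 0.08 with KO51 and -0.11 without it, with 0 members called in both. Of all symbols 0% were called in series 2 with KO51, and 0.0461% were lower and 0.00923% higher without it.

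Between the series themselves many ribosomal protein genes differed, and so did a large share of all symbols. With genotype in the model, limma called 3 members lower and 9 higher in series 2 than in series 1, beside 19.1% and 3.78% of all symbols, and without KO51 26 lower and 15 higher, beside 30.4% and 11.6%. Rpl38, a 60S protein whose loss disturbs skeletal patterning in mice, was at 560 to 656 FPKM in series 1 and at 308 to 444 FPKM in series 2 without KO51. Rpl10 was at 585 to 722 FPKM in series 1 and at 441 to 569 FPKM in series 2 without KO51. Neither gene overlapped between the series outside KO51, and the same held for Rps27l, Rpl14 and Rps27. For Rps27 this was the switch between entries at its locus. Its sum with Gm9846 was 451 to 621 FPKM in series 1 and 520 to 793 FPKM in series 2 without KO51, which overlap. In Rps24, a 40S gene mutated in Diamond-Blackfan anaemia, series 2 was higher, at 243 to 387 FPKM against 194 to 262 FPKM (log2 difference 0.47, adjusted p = 3e-04 without KO51). Members without overlap, counted on the entries as deposited, numbered 5 of 83 (6.02%) without KO51 and 1 with it, which was Rps27. Beside these stood 5.69% and 2.23% of all symbols. With median-of-ratios scaling and KO51 included, 0 members were lower and 15 higher in series 2, beside 7.94% and 8.59% of all symbols. The directions with KO51 included thus depend on the scaling. This scaling was not run for the series term without KO51. Each series holds both genotypes, and what else differed between them cannot be told apart.

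**Figure D5:**
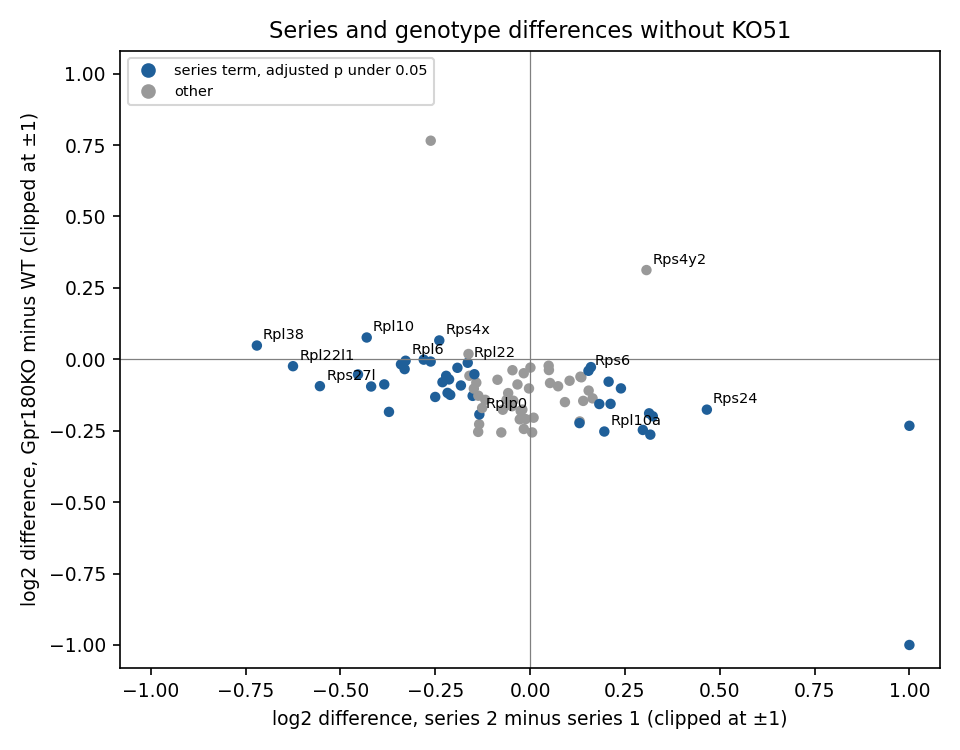
Series difference (horizontal axis, log2, series 2 minus series 1) against genotype difference (vertical axis, log2, Gpr180KO minus WT) of the 83 genes without KO51, both clipped at ±1, with 41 members that pass the series term in blue. Series differences spread from -0.72 (Rpl38) to 0.47 (Rps24) outside the entries that share a locus, wider than the genotype differences of most members.

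Ratios of paralogs within a library do not depend on scaling between libraries. RPL22L1 can take the place of RPL22 in the ribosome, and the FPKM of the pair was of similar size in these livers. Rpl22l1 was at 20.1, 36.3 and 55.7 FPKM in WT and at 18.2, 31.3 and 53.6 FPKM in Gpr180KO without KO51, and Rpl22 at 31.1, 37.0 and 41.4 and at 30.4, 37.9 and 40.3 FPKM. The log2 ratio of Rpl22l1 to Rpl22 was -0.22 ± 0.48 (SD, n = 9) in WT and -0.18 ± 0.39 in Gpr180KO (difference 0.04, two-sided exact permutation p = 0.84, adjusted p = 0.88 over 5 ratios). It differed in sign between the series: -0.40 in series 1 (exact permutation p = 0.029, the smallest that 4 against 4 allows) and 0.39 in series 2 (exact permutation p = 0.20). The test of this change between the series, with genotypes permuted within series, gave an exact permutation p of 0.021, which was 0.052 after adjustment over the 5 ratios. Rpl22l1 by itself was the most variable member outside the shared loci, with an SD of 0.59 on the log2 scale.

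RPL7L1 works in ribosome assembly, and its mRNA was far below that of Rpl7, at 17.9, 22.2 and 25.4 FPKM in WT against 285, 307 and 325 FPKM for Rpl7. The log2 ratio was -3.82 ± 0.13 in WT and -3.92 ± 0.22 in Gpr180KO (exact permutation p = 0.26, adjusted p = 0.43, n = 9 each). KO51 had the lowest ratio, -4.40. Without it the difference moved from -0.10 to -0.04 (exact permutation p = 0.52). Rpl36al, a paralog of Rpl36a, had the higher FPKM of the pair, with log2 ratios of 0.78 ± 0.09 in WT and 0.86 ± 0.14 in Gpr180KO (exact permutation p = 0.17, adjusted p = 0.42, n = 9 each). Rps27l, a p53-inducible paralog of Rps27, was at 222, 279 and 435 FPKM in WT and at 219, 310 and 378 FPKM in Gpr180KO without KO51. Against the sum at the Rps27 locus its log2 ratio was -0.97 ± 0.52 in WT and -0.93 ± 0.43 in Gpr180KO (exact permutation p = 0.86, n = 9 each). None of these 4 paralog ratios separated the genotypes.

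The targeted gene gave a measure of what a ratio to Rplp0 can show. Gpr180 was at 4.46, 7.29 and 9.24 FPKM in WT and at 0.876 to 1.99 FPKM in the 9 Gpr180KO livers, with no overlap. The log2 ratio of Gpr180 to Rplp0 was -5.16 ± 0.42 (SD, n = 9) in WT and -7.07 ± 0.38 (SD, n = 9) in Gpr180KO, a difference of -1.91 (exact permutation p = 4.1e-05, the smallest that 48620 regroupings allow, adjusted p = 0.00021, lower in 9 of 9 Gpr180KO livers). Without KO51 the difference was -1.84. As a lone reference, Rplp0 was 1.74-fold higher in KO51 than in the median of the other libraries.

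Members moved together across livers, and less so without KO51. The correlation of each member with the mean of the other 82 over 18 libraries had a median of 0.83, and 73 members exceeded 0.5. Over the 17 libraries without KO51 the median was 0.50 and 42 members exceeded 0.5, and with the mean of each series removed it was 0.60. Rpl11 (0.93), Rpl23 (0.92) and Rpl36a (0.88) followed the rest most closely over the 17, and Rpl34 (-0.45), Rpl10 (-0.44) and Rpl38 (-0.39) ran against it. The mean of the other members includes Rpl26 and Rps27 as deposited, with SDs of 5.24 and 3.82 on the log2 scale over the 17. That mean thus also follows which entry held the reads at these shared loci, and Rpl34 is such an entry itself. The correlations were not recomputed with the summed loci. The SD of log2(FPKM + 0.1) had a median of 0.29 over 18 libraries for members and for all symbols, and of 0.17 for members and 0.23 for all symbols over 17. All these values share the libraries and their depth, and they are given as description.

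The 10 symbols outside the set that correlated best with the members' mean over the 18 libraries were Pet100, Cox7b, Ndufa5, Gm14872, C1qbp, Ndufs6, Cox7c, Cox7a2, Shfm1 and Deb1, with r from 0.95 to 0.92. Of these, Cox7b, Cox7c and Cox7a2 encode subunits of cytochrome c oxidase, Pet100 an assembly factor of that complex, and Ndufa5 and Ndufs6 subunits of complex I. KO51 was the highest library for each of the 10. Over the 17 libraries without KO51, Pet100 (r = 0.90) and Gm14872 (r = 0.90) led the list, and C1qbp and Cox7b were the other 2 of the 10 still among the first 10. The members' mean holds Rpl26 and Rps27 as deposited here too. These rankings therefore also carry the switch of entries at those loci, and they were not recomputed with the summed loci.

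Related lists of genes held few calls in limma. Of 76 mitochondrial ribosomal protein genes, 74 subunits of oxidative phosphorylation and 37 of the proteasome, 0 were called in either direction with all libraries, and their median log2 differences were 0.01, 0.07 and 0.03. Without KO51 Mrpl54 and Psmd8 were called lower, and the medians were -0.06, -0.002 and -0.03. In KO51 the 3 lists stood 0.61, 0.92 and 0.50 above the other libraries on the log2 scale, with median transcript lengths of 1284, 838 and 1540 nt. Of 37 translation factors, 56 ribosome biogenesis genes and 17 regulators of TOP mRNAs and mTORC1, 0 were called with all libraries, and Nop10 was called lower without KO51. Their medians were -0.05, -0.10 and -0.27 with all libraries and -0.06, -0.11 and -0.11 without KO51. In KO51 these lists stood at 0.20, -0.01 and -0.81 against the other libraries. Gnb2l1 (RACK1) and Fau, which encode ribosomal proteins under other names, had log2 differences of -0.06 and 0.10 (limma adjusted p of 0.74 for both). The 5 ribosomal protein pseudogenes tested had a median of 0.03, with 0 called, and 8 non-coding hosts of small nucleolar RNAs had 0.01, with 0 called.

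Markers of several other liver cell types were lower in Gpr180KO. Of 10 stellate cell and fibroblast markers 6 were lower in Gpr180KO (summed FPKM 144 to 294 in WT and 81.1 to 147 in Gpr180KO), of 9 macrophage markers 4 were lower (151 to 419 and 182 to 276 FPKM), and of 3 cholangiocyte markers 2 were lower (46.1 to 230 and 20.3 to 52.9 FPKM). Spp1 made up most of the cholangiocyte sum, at 36.8 to 223 FPKM in WT and 14.9 to 47.7 FPKM in Gpr180KO. Sox9, the other one called, was at 0.884 to 2.36 and 0.454 to 1.25 FPKM. A further 4 symbols of the cholangiocyte list had means under 1 FPKM and were not tested. Of 11 hepatocyte markers 2 were higher (21321 to 26557 and 24287 to 38031 FPKM, the highest in KO51), and their sum was high in every library, as the label liver says. Of 9 endothelial, 5 erythroid, 3 neutrophil and 1 lymphocyte markers 0 were called. In whole liver, fewer cells of a type and less RNA per cell cannot be told apart, and the part of cell composition in the members' values was not tested. In KO51 the stellate, macrophage and endothelial markers stood at -0.58, -0.09 and -0.78 on the log2 scale against the other libraries, hepatocyte markers at -0.05 and erythroid markers at 1.05, beside 0.94 for the members.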

How the data were processed

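Poly(A) RNA of 18 livers was sequenced as single reads, and the authors aligned the reads to mm10 with TopHat and deposited FPKM per gene symbol, with bounds and a status, for each mouse. The FPKM were output of the TopHat Alignment application, per the study's methods, and the annotation behind them is not given in the sources used here. FPKM of entries that share a symbol were summed, and 24 symbols with a failed estimate (136 HIDATA and 54 FAIL values) were dropped. The deposited bounds held the FPKM value for 13 to 17 of the 83 members per library, so they were not used as errors. Read totals of single libraries were not used here. From the steps between low FPKM values, depth was 44.3 to 100% of that of the deepest library, and depth limits the precision of low values.

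The members and lists were chosen with earlier results of these data known. Symbols with a mean of at least 1 FPKM were compared with limma 3.58.1 (R 4.3.3, lmFit and eBayes with trend) on the log2 scale after adding 0.1 FPKM, the p-values of all 10835 were adjusted by Benjamini-Hochberg, and the threshold was 0.05. The scale understates changes of low values. Each mouse is 1 replicate. Ratios were compared by two-sided exact permutation tests over libraries (scipy 1.17.1, Python 3.11.15). Series means the style of the sample title. The correlation of 2 measures over 17 libraries used 100000 resamples. Lengths came from GENCODE vM21 and start windows from RefSeq, both GRCm38, the build that mm10 names. Entry positions were taken as counted from 0 in the tables and are given counted from 1. The limma step was tested on simulated data. Genes named were Rplp0, Rps6, the stalk genes, the paralog pairs, Rpl5, Rpl11, the 5 members of highest and of lowest mean, of largest SD and of largest difference in each direction, called members, and genes outside the set by correlation or list. One gene that this rule names is not reported here. Series members and those called without KO51 were named after their values were seen. Other settings run were adding 1 or 0.01 FPKM, a minimum mean of 0.1, of 5 or no minimum, other scalings, a series block, each series, each library left out, weights per library, robust eBayes, the highest entry per symbol and failed estimates kept. Those that combine the removal of KO51 with another change, sum the shared loci, centre by 10 length classes or test the series term were added after seeing the data. Figures were drawn with matplotlib 3.10.9.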

Additional observations from a re-analysis of the deposited data

Results flagged for a closer look

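Within each genotype, 62 sets of 9 values (28 named members, their sum and share, and Gpr180, in WT and in Gpr180KO) were searched for a library whose gap to its neighbour as a share of the range exceeded Dixon's 95% critical value. By chance about 1 set in 20 is flagged. KO51 was flagged as the highest Gpr180KO library in 21 of them, and 1 other library was flagged once. The members' summed FPKM was 40868 in KO51 and their share of all FPKM 5.69%. Among stalk genes and regulators, KO51 had 387 FPKM for Rplp0, 1741 for Rplp1, 607 for Rplp2, 308 for Rps6, 203 for Rpl5 and 722 for Rpl11. Among paralogs it had 63.7 FPKM for Rpl22, 456 for Rpl7, 651 for Rpl36al and 409 for Rpl36a. For other members KO51 had 1510 FPKM for Rpl41, 928 for Rpl10, 1211 for Rps29, 1155 for Rpl38, 22.7 for Rps15a, 539 for Rpl17, 526 for Rpl39, 364 for Rpl10a and 621 for Rpl35. These flags share 1 library and are not independent of each other.

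KO53 was flagged for Rpl26, with 66.6 FPKM where the other 8 Gpr180KO libraries had at most 0.0176 FPKM, and the second entry at that locus held the reads in those 8.

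The genotype difference of the log2 ratio of Rps27l to Rps27 was -1.15 in series 1 and 0.59 in series 2, and the change of 1.74 between the series passed its test (exact permutation over 17640 regroupings, p = 0.0084, adjusted p = 0.042 over 5 ratios). With Gm9846 added to Rps27 the change was 0.22 (exact permutation p = 0.24, not adjusted).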

How the results depend on the processing

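The count of members called lower was 0 with all libraries and moved to 8 with weights per library, beside 10.7% of all symbols. It moved to 15 without KO51 with the series as a block, beside 16.2%, and to 5 without KO51 with TPM scaling, beside 718 of 10835 symbols. Without KO51 and with the shared loci summed it was 6, and the share over all symbols was not counted there. Leaving out each library gave 0 to 6, and the 6 belongs to KO51, beside 6.36% of all symbols. In every other setting run it stayed at 0, as did the counts called higher and with a series interaction in all settings.

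The median difference of 0.01 moved by more than the SD of the WT libraries to 0.16 with median-of-ratios scaling, 0.13 with 75th percentile scaling, -0.12 with weights per library and -0.11 in series 1 alone. Without KO51 the median was -0.11 with a series block, -0.11 in series 2, -0.093 with TPM scaling and -0.10 with the shared loci summed. Leaving out each library gave -0.10 to 0.037, and -0.016 to 0.037 apart from KO51.

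Of the members that differed between the series, 3 were lower and 9 higher. These counts moved to 26 and 15 without KO51, and to 0 and 15 with median-of-ratios scaling and KO51 included. The difference of the Gpr180 to Rplp0 ratio was -1.87 in series 1 alone, where its adjusted p was 0.071 and 4 against 4 libraries cannot give an unadjusted p under 0.029, and -1.98 to -1.83 when each library was left out. Left-out libraries gave -0.04 to 0.12 for Rpl22l1 to Rpl22, -0.73 to 0.59 for Rps27l to Rps27, -0.14 to -0.04 for Rpl7l1 to Rpl7 and 0.06 to 0.11 for Rpl36al to Rpl36a, with no call.

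For the 28 named members, 2 of 504 values with a library left out, 2 of 420 under the other settings and 10 of 224 under those added after seeing the data passed the threshold, each in the direction first fitted. The sign changed in 45, 48 and 51 of these values, none of them called. Gpr180 itself missed the threshold in series 2 alone (log2 difference -1.94).

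No paired analysis was possible because the mouse numbers in the titles name animals and do not pair the genotypes. Without counts or replicate libraries of a mouse, counting error and biological spread could not be separated.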
